A study of Mus musculus with 12 samples.

Results

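The genes described here are the protein-coding integrin, collagen, and laminin genes, found by their symbols (Itga or Itgb, Col with an a chain number, or Lama, Lamb, or Lamc), without the platelet integrin genes Itga2b and Itgb3 and the myeloid Itgam. Of 84 genes with such a symbol, 51 had at least 10 counts in at least 3 libraries, out of 13255 protein-coding genes that passed the same minimum. They were 20 integrin chains, 20 collagen chains, 7 laminin chains, and 4 genes that share the letters but belong to none of these families, namely Itgb1bp1 and Itgb1bp2, which encode proteins that bind the Itgb1 chain, Itgb3bp, which encodes a kinetochore protein, and Col4a3bp, which encodes a ceramide transfer protein. The other 33 genes fell short, 24 of them collagens, among them Col3a1 and the Col6 genes, with 4 integrins (Itga7, Itga8, Itga11, and Itgb8), 4 laminins, and Itgbl1.

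Integrins are the receptors by which blood stem and progenitor cells hold to their surroundings, and collagens and laminins are among the proteins they hold to. Each integrin is a pair of an alpha and a beta chain, so the chains that a cell makes set the receptors it can build. The product of Itgb1 pairs with many alpha chains, those of Itgb2 and Itgb7 mark leukocytes, and those of Itgb5 and Itgb6 pair with that of Itgav. Collagens are triple helices, those of the collagen IV genes form the network of basement membranes, and laminins are trimers of an alpha, a beta, and a gamma chain. In bone marrow these molecules take part in the homing, anchoring, and quiescence of hematopoietic stem cells.

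RNA was sequenced from C57BL/6 mouse bone marrow LSK cells (lineage-negative, Sca-1+, c-Kit+ stem and progenitor cells) that carried a lentiviral shRNA against Rad21, a subunit of the cohesin ring (shRad21), or against luciferase, which mouse cells lack (shLuci), each with a GFP reporter. For culture, cells with GFP and Sca-1 but without CD48 were sorted 3 days after isolation and infection from medium with thrombopoietin and stem cell factor. For the in vivo libraries, LSK cells with GFP were recovered from irradiated recipients 3 months after transplantation by the labels, a time the study's text puts later. Each of the 4 groups had 3 libraries, and all were infected cells, so uninfected cells were not compared. The labels name 1 construct per group, the age of the donors is not in them, and they do not say whether replicates came from separate cultures or mice, so the p-values measure the spread between these samples.

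The libraries held 15235129 to 29846689 counts. Levels are given as CPM (counts scaled to a common library size) with TMM factors over all 12 libraries, and a value of 3 counts in 1 library corresponded to 0.101 to 0.197 CPM before that scaling. Rad21 itself was at 384, 419, and 405 CPM in the shLuci and 154, 137, and 128 CPM in the shRad21 libraries in culture, and at 118, 124, and 125 against 43.4, 47.7, and 43.6 CPM in vivo, so every library matched its label. All 10 stem and progenitor markers checked, among them Kit, Ly6a, and Procr, had counts in every group. They moved with the knockdown, 5 higher (Gata2, Hlf, Mecom, Meis1, and Slamf1) and 2 lower (Flt3 and Kit) in culture and 5 higher (Gata2, Ly6a, Mecom, Meis1, and Slamf1) and 3 lower (Cd34, Flt3, and Kit) in vivo, with sums of 3021 to 3331 and 2962 to 3313 CPM in culture and 4206 to 4430.0 and 3643 to 3797 CPM in vivo, and their part in the member values was not tested. shLuci in vivo replicate 2 stood apart in how many genes it touched, 26938 against 21502 to 25108 in the others, and it held counts for 83 of the 84 genes against 64 to 78 in the others. In bulk RNA, fewer cells of a type and less RNA per cell cannot be told apart.

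Genes of collagen IV lie in head-to-head pairs that share the stretch between their starts, and both pairs take part in the changes described below. Col4a1 (ENSMUSG00000031502, chr8:11198423-11312826, minus strand) and Col4a2 (ENSMUSG00000031503, chr8:11312805-11449287, plus strand) are divergent genes whose annotated first bases overlap by 22 bases. Col4a6 (ENSMUSG00000031273, chrX:141165403-141474076, minus strand) and Col4a5 (ENSMUSG00000031274, chrX:141475385-141689234, plus strand) are divergent with 1308 bases between their annotated starts. The shared start of the first pair (GRCm38, chr8:11312805-11312826, plus strand) and the bases upstream of each gene of the second (chrX:141474077-141474326, minus strand, and chrX:141475169-141475384, plus strand) are shown, cut from RefSeq promoter windows on GRCm38, with the letters of the GC box (GGGCGG) and the CCAAT box (CCAAT) on either strand in capitals.
Col4a2 and Col4a1 shared start: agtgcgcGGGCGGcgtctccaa
Col4a6 upstream: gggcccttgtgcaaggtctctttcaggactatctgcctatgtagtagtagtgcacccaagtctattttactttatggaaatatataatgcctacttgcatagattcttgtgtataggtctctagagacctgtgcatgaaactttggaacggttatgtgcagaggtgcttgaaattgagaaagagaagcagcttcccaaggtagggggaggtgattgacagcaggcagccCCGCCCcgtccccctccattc
Col4a5 upstream: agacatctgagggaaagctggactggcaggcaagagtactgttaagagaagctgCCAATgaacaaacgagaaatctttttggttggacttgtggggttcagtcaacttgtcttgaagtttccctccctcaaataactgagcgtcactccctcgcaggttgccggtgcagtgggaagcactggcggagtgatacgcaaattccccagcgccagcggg

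The shared Col4a2 and Col4a1 start held a GC box, as did the last bases before the Col4a6 start, where it lay on the opposite strand, while the stretch shown for Col4a5 held a CCAAT box. Windows of 300 bases around all 4 starts (250 before and 50 after) held at least 1 GC box each, and those of Col4a1, Col4a2, and Col4a5 held a CCAAT box. Such letters are common, since GGGCGG occurred on either strand in 35.7% and CCAAT in 37.4% of 32851 RefSeq windows of this length. TATAAA, found in 13.6% of windows, was in none of the 4. The windows of the first pair were richer in G and C, 74.0% for Col4a1 and 73.7% for Col4a2, than those of Col4a5 (52.7%) and Col4a6 (48.3%).

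Itgb1, the common beta chain, had the highest level per exonic length of all members in every group, at 134.6 ± 5.22 RPKM (CPM per kilobase of exon, mean ± SD, n = 3) in shLuci cells of the culture and 134.2 ± 4.75 after knockdown, and 87.4 ± 3.42 and 90.6 ± 5.21 in vivo. It stood clear of the next gene in each group. In shLuci cells in culture the next were the basement membrane genes Col4a2 (55.1 ± 3.22 RPKM) and Col4a1 (39.3 ± 4.59), then Itga6 (36.6 ± 2.42), the laminin-binding chain, and Itgb2 (34.3 ± 2.71), the beta chain of leukocyte integrins. Col4a1 and Itga6 overlapped in their libraries, and so did Itga6 and Itgb2. In shLuci cells in vivo the second place fell to Itgb7 (48.1 ± 6.08 RPKM), the beta chain of the homing receptors, followed by Itgb2 (30.8 ± 3.88), Itgal (15.9 ± 0.874), which encodes the alpha chain of LFA-1, Itga5 (13.9 ± 1.13), the fibronectin receptor chain, and Itga6 (13.3 ± 2.45), the last pair of which overlapped. Col16a1, which encodes a fibril-associated collagen, was the collagen with the highest mean level per length in vivo in both groups, 5.51 ± 1.26 RPKM in shLuci and 15.1 ± 0.436 RPKM in shRad21 cells. In shLuci cells its libraries overlapped those of Col4a2 and Col4a1 (means of 4.43 and 4.36 RPKM), and in shRad21 cells it stood clear of them.

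**Figure D1:**
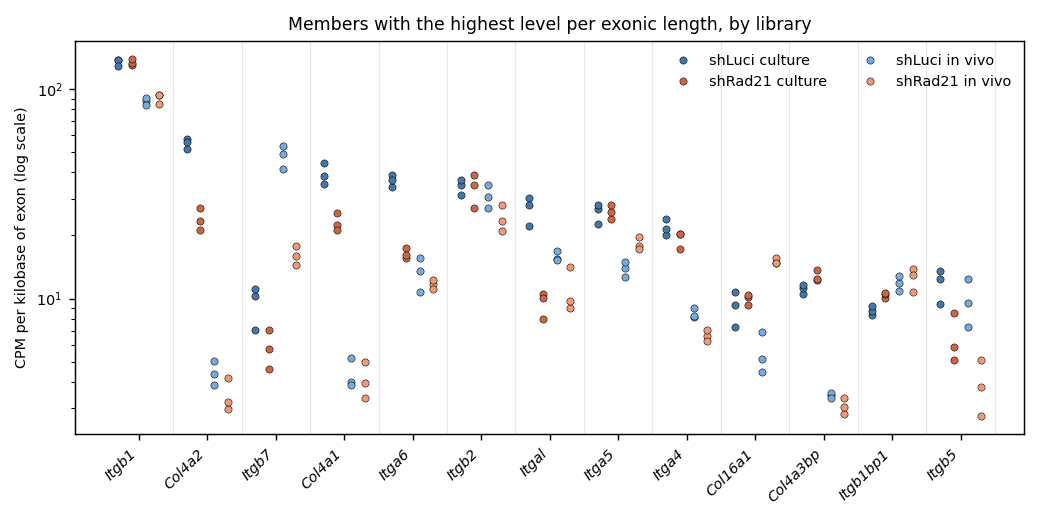
Levels per exonic length (CPM per kilobase, log scale) of the 13 members that were among the 8 highest in any group, with 1 point per library and 3 libraries per group. Itgb1 lies above all others in each group, Col4a1 and Col4a2 are higher in culture than in vivo, and Itgb7 is high in shLuci cells in vivo.

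In the Rad21 knockdown in culture, 35 of the 51 members had enough counts to be tested, and shRad21 cells had more of 3 and less of 12 of them, against 14.2% of 15543 genes called in either direction (6.18% higher and 8.06% lower). A member is called where its p from the quasi-likelihood test of edgeR, adjusted by Benjamini and Hochberg's method over every gene tested, is under 0.05. Among those lower were the laminin-binding integrin chain Itga6, the LFA-1 chain Itgal, and the basement membrane collagens Col4a1, Col4a2, and Col18a1, while Itgb6, Col23a1, and Lamc1 were higher. Without shLuci replicate 2, shRad21 replicate 1, or shRad21 replicate 3, 1 member was higher in place of 3. Groups did not overlap in 20 members, against 31.5% of all genes tested. The median log2 fold change of the 35 members was -0.024, and that of all genes tested -0.0039.

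In vivo, 43 members were tested, 8 higher and 9 lower in shRad21 cells, against 11.0% of 15938 genes called in either direction (5.65% higher and 5.32% lower). There the beta chain Itgb7, the collagen receptor chain Itga2, and the dendritic cell chain Itgax were lower, and the collagens Col16a1, Col4a5, and Col4a6 and the laminin chains Lama5 and Lamc1 were higher. Groups did not overlap in 25 members, against 29.1% of all genes tested, and the median log2 fold change of the 43 was -0.17 against -0.0019 for all genes. Without shLuci replicate 2, which stood apart above, 7 members were higher and 6 lower, and without shRad21 replicate 3, 5 and 5. Of the 32 members tested in both experiments, 7 were called in the same direction in both (Itga9, Itgax, Itgb5, Itgb7, and Col11a2 lower, Itgb6 and Lamc1 higher) and 1, Lama5, in opposite directions. The share of all genes called in both was not counted, so whether the members share more calls than other genes was not tested. Col11a1, Col27a1, Col4a3, Col5a3, and Itga1 had too few counts for a test in either experiment.

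**Figure D2:**
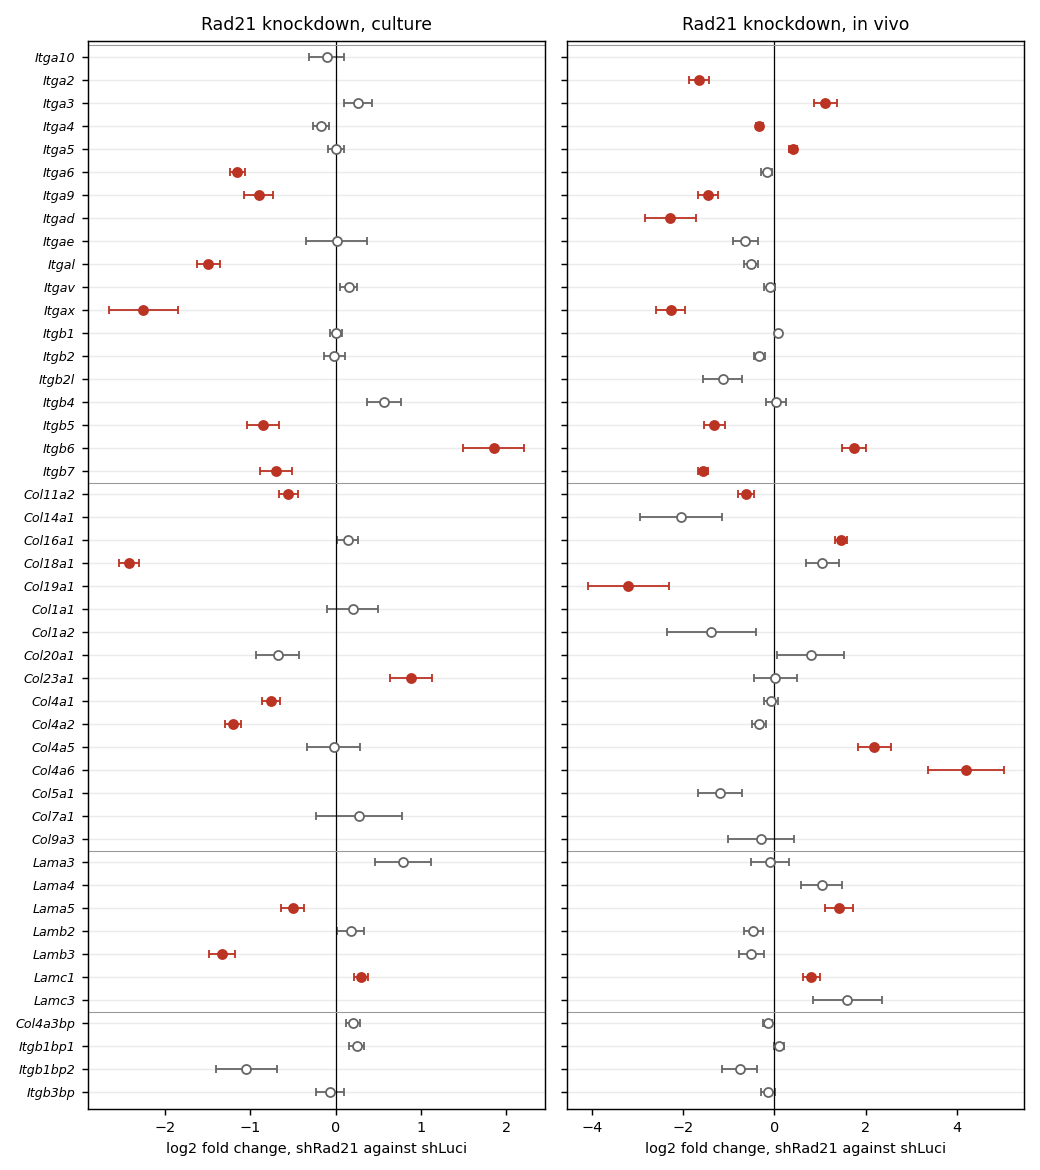
Log2 fold change of shRad21 against shLuci cells (x axis, points with SE bars) for each member tested, by symbol, in culture (35 members) and in vivo (43 members), with integrins, collagens, laminins, and the 4 other genes from top to bottom. Filled red points passed the edgeR test, 3 higher and 12 lower in culture and 8 higher and 9 lower in vivo, and a missing point is a member with too few counts; the panels have scales of their own.

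Among Itgb1 and its alpha partners, the beta chain overlapped between shLuci and shRad21 cells. Itgb1 (ENSMUSG00000025809, chr8:128685654-128733200, plus strand) was at 560.0, 563, and 525 CPM in shLuci and 532, 543, and 569 CPM in shRad21 cells in culture, and at 356, 371, and 343 against 383, 381, and 345 CPM in vivo. Groups overlapped in both experiments, and the edgeR adjusted p was 0.984 in culture and 0.6 in vivo. Its alpha partners moved one by one. Itga6 (ENSMUSG00000027111, chr2:71745616-71858416, plus strand), whose product binds laminin with that of Itgb1 or Itgb4, was at 308, 351, and 331 CPM in shLuci and 158, 141, and 145 CPM in shRad21 cells in culture. Every shRad21 library lay below every shLuci library (log2 fold change -1.15 ± 0.08, edgeR adjusted p = 2.07e-05). In vivo the values were 141, 122, and 97.3 CPM and 106, 111, and 100.3 CPM, which overlapped (log2 fold change -0.17 ± 0.12, edgeR adjusted p = 0.449). The difference between both effects passed its own test (-0.97 ± 0.15 on the log2 scale, edgeR adjusted p = 0.00203).

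Itga9, whose product binds tenascin C, osteopontin, and VCAM-1, was lower in both experiments. It was at 14.7, 13.4, and 10.7 CPM in shLuci and 7.58, 7.53, and 5.62 CPM in shRad21 cells in culture (log2 fold change -0.90 ± 0.17, edgeR adjusted p = 0.0052). In vivo it was at 14.3, 10.9, and 9.998 CPM and 5.40, 3.23, and 4.14 CPM (log2 fold change -1.45 ± 0.22, edgeR adjusted p = 0.00272). The groups did not overlap in either experiment, and the shLuci means were 13.0 ± 2.04 CPM in culture and 11.8 ± 2.27 CPM in vivo. Itga2, the collagen receptor chain that platelets and NK cells carry, was at 7.56, 5.40, and 6.55 CPM in shLuci and 2.33, 1.89, and 1.88 CPM in shRad21 cells in vivo. Its shRad21 libraries all lay below its shLuci libraries (log2 fold change -1.66 ± 0.22, edgeR adjusted p = 0.00121), while in culture, at under 1 CPM in all 6 libraries, it was not tested.

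Smaller changes in vivo were those of Itga4, Itga5, and Itga3. Itga4, the chain of the VCAM-1 receptor that holds progenitors in the marrow, was at 126, 114, and 116 CPM in shLuci and 92.8, 99.5, and 87.7 CPM in shRad21 cells (log2 fold change -0.33 ± 0.07, edgeR adjusted p = 0.0185). Itga5, which pairs with Itgb1 to bind fibronectin, went the other way, from 69.4, 73.8, and 62.7 CPM to 97.4, 87.4, and 84.9 CPM (log2 fold change 0.41 ± 0.08, edgeR adjusted p = 0.0139). Itga3, another laminin-binding chain, was at 2.40, 2.52, and 4.42 CPM and 7.74, 5.75, and 6.64 CPM (log2 fold change 1.12 ± 0.26, edgeR adjusted p = 0.0229). None of the 3 overlapped between groups in vivo, and none was called in culture (edgeR adjusted p = 0.278, 0.974, and 0.338). The call of Itga3 was lost without shLuci replicate 1 or 2 or shRad21 replicate 1 or 3 (edgeR adjusted p = 0.0666 to 0.0839). That of Itga4 was lost without shLuci replicate 1 or shRad21 replicate 1 or 3 (edgeR adjusted p = 0.0577 to 0.099). Tests of the difference between experiments were not passed by Itga4, Itga5, or Itga3 (edgeR adjusted p = 0.555, 0.123, and 0.159), though Itga5 and Itga3 passed them with no filter on low counts (edgeR adjusted p = 0.048 and 0.0328). Itga10, a collagen-binding chain, reached 2.52 to 3.46 CPM in shLuci cells in culture and was not called there (edgeR adjusted p = 0.811), and 33.5% of its exonic length overlaps another gene.

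The leukocyte integrin chains of the Itgb2 group were lower where they changed. Itgal, the alpha chain of LFA-1 (ENSMUSG00000030830, chr7:127296260-127335138, plus strand), was at 146, 199, and 184 CPM in shLuci and 52.4, 68.8, and 66.1 CPM in shRad21 cells in culture, with no overlap (log2 fold change -1.49 ± 0.13, edgeR adjusted p = 6.2e-05). In vivo it was at 111, 102, and 100.2 CPM and 59.4, 93.0, and 63.9 CPM, again with no overlap, and missed the threshold (log2 fold change -0.51 ± 0.15, edgeR adjusted p = 0.057). It passed in 6 of the 7 other analyses, with DESeq2 (adjusted p = 0.00263) and, with edgeR, in the model of all 12 libraries, with 10 counts required in every library, with no filter on low counts, with the replicate block, and with upper-quartile scaling (adjusted p = 1.18e-07 to 0.0434), and also without shRad21 replicate 2 (edgeR adjusted p = 0.00125). The difference between its effects (-0.97 on the log2 scale, edgeR adjusted p = 0.0204) was called, and this call was lost without shLuci culture replicate 2 or shRad21 culture replicate 1 (edgeR adjusted p = 0.06 to 0.0639). Its beta partner Itgb2 overlapped between groups in culture, at 107, 112, and 95.6 CPM and 82.5, 107, and 119 CPM (edgeR adjusted p = 0.955). In vivo Itgb2 was at 82.4, 106, and 93.5 CPM and 71.8, 63.9, and 85.6 CPM (log2 fold change -0.33 ± 0.12, edgeR adjusted p = 0.119), and passed with DESeq2 (adjusted p = 0.0419) and with no filter (edgeR adjusted p = 0.00266). Itgax, the alpha chain known as CD11c on dendritic cells, was low and fell in both experiments. In culture it was at 0.912, 0.770, and 1.17 CPM against 0.124, 0.303, and 0.178 CPM (log2 fold change -2.25 ± 0.41, edgeR adjusted p = 0.00383), which rests on few counts, and in vivo at 5.29, 3.53, and 3.85 CPM against 0.549, 1.08, and 0.941 CPM (log2 fold change -2.28 ± 0.32, edgeR adjusted p = 0.00173). Its groups did not overlap in either experiment.

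Itgad, a macrophage chain of the same group, was at 0.578, 1.46, and 1.42 CPM in shLuci and 0.183, 0.359, and 0.141 CPM in shRad21 cells in vivo (log2 fold change -2.28 ± 0.56, edgeR adjusted p = 0.0287). Its groups did not overlap, its call was lost without shLuci replicate 2 or 3 or shRad21 replicate 1 or 3 (edgeR adjusted p = 0.0974 to 0.134), and 19.7% of its exonic length overlaps another gene. The neutrophil chain Itgb2l was at 1.60, 2.22, and 1.02 CPM and 0.641, 0.494, and 1.03 CPM (log2 fold change -1.14 ± 0.43, edgeR adjusted p = 0.136). Markers of monocytes, macrophages, and dendritic cells moved with these chains. Of 8 such markers 4 were tested in culture and all 4 were lower (Cd14, Cd68, Csf1r, and Cx3cr1), their summed level running from 63.7 to 79.5 CPM in shLuci to 20.98 to 23.6 CPM in shRad21 libraries. In vivo 3 of 8 tested were lower (Cd68, Csf1r, and Ly86), and the sums ran from 53.8 to 92.7 CPM to 24.1 to 27.9 CPM, with none of the markers at 0 in any group. Neutrophil markers were lower in 2 of 3 tested in culture and 2 of 7 in vivo (Mpo and Prtn3 in both), with sums of 69.4 to 86.0 and 32.2 to 37.8 CPM in culture, where Ly6g was at 0 in both groups, and 1541 to 1985 and 1119 to 1287 CPM in vivo. Their part in the leukocyte integrin values was not tested.

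Itgb7 (ENSMUSG00000001281, chr15:102215995-102231944, minus strand), which pairs with Itga4 to bind the mucosal addressin MAdCAM-1 or with Itgae to bind E-cadherin, was the second gene per length in control cells in vivo and lost most of that level. It was at 149, 115, and 136 CPM in shLuci and 40.1, 44.3, and 49.3 CPM in shRad21 cells in vivo. The groups were far apart (log2 fold change -1.56 ± 0.10, edgeR adjusted p = 4.38e-05), and the call held with each library left out in turn. In culture Itgb7 was at 19.5, 28.6, and 30.6 CPM and 12.8, 15.9, and 19.6 CPM, which touched (log2 fold change -0.70 ± 0.19, edgeR adjusted p = 0.0285), and this call was lost without shLuci replicate 2 or 3 or shRad21 replicate 1 or 2 (edgeR adjusted p = 0.0677 to 0.118). The effect in culture differed from that in vivo by 0.87 on the log2 scale (edgeR adjusted p = 0.0494), a call that was lost without shLuci culture replicate 1 or 2 or shLuci in vivo replicate 1 or 3 or shRad21 culture replicate 2 or 3 or shRad21 in vivo replicate 1, 2 or 3 (edgeR adjusted p = 0.0672 to 0.142). Itgae, the other alpha partner, was not called in either experiment (edgeR adjusted p = 0.99 in culture and 0.179 in vivo), at 2.15 CPM in shLuci cells in vivo. B cell markers were lower beside it in vivo in 3 of 5 tested (Cd79a, Ebf1, and Pax5), with sums of 74.3 to 94.5 against 52.3 to 67.4 CPM and none at 0. T and NK cell markers had sums of 305 to 411 against 238 to 265 CPM there, with Nkg7 lower and Klrb1c higher of 4 tested. Mast cell and basophil markers went the other way, with 3 of 7 tested higher (Cma1, Cpa3, and Tpsb2) and sums of 98.1 to 118 against 141 to 209 CPM. Erythroid markers were lower in 3 of 7 tested (Alas2, Car1, and Klf1), with sums of 101 to 159 against 63.8 to 85.9 CPM. Their part in the Itgb7 values was not tested.

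Itgb5 and Itgb6 are among the beta partners of Itgav, with which they bind vitronectin and activate latent TGF-beta. They changed in opposite directions, each in the same way in culture and in vivo. Itgb5 was at 48.1, 44.2, and 33.5 CPM in shLuci and 30.3, 18.1, and 20.8 CPM in shRad21 cells in culture, with no overlap (log2 fold change -0.85 ± 0.18, edgeR adjusted p = 0.0108). In vivo it was at 26.1, 33.8, and 44.1 CPM and 13.5, 9.75, and 18.2 CPM, with no overlap (log2 fold change -1.32 ± 0.24, edgeR adjusted p = 0.00674). Only in culture was its call lost when a library was left out, which happened without shLuci replicate 2 (edgeR adjusted p = 0.0557). Itgb6, a chain known from epithelia, was the integrin chain that rose in both experiments. It went from 0.561, 1.64, and 1.82 CPM to 3.26, 5.05, and 6.73 CPM in culture (log2 fold change 1.85 ± 0.36, edgeR adjusted p = 0.00601) and from 2.76, 4.74, and 2.39 CPM to 11.9, 11.4, and 9.55 CPM in vivo (log2 fold change 1.75 ± 0.26, edgeR adjusted p = 0.00244). Every shRad21 library lay above every shLuci library of its experiment. Itgav itself was at 52.4 ± 3.94 and 58.0 ± 6.64 CPM (SD, n = 3) in culture and 27.3 ± 2.71 and 25.2 ± 2.40 CPM in vivo (edgeR adjusted p = 0.385 and 0.686). Itgb4, the laminin receptor chain that pairs with Itga6, was at 3.16, 2.36, and 2.33 and 3.92, 3.89, and 3.67 CPM in culture and passed the test only with the replicate number as a block (log2 fold change 0.57 ± 0.19, edgeR adjusted p = 0.081 without it and 0.0464 with it).

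**Figure D3:**
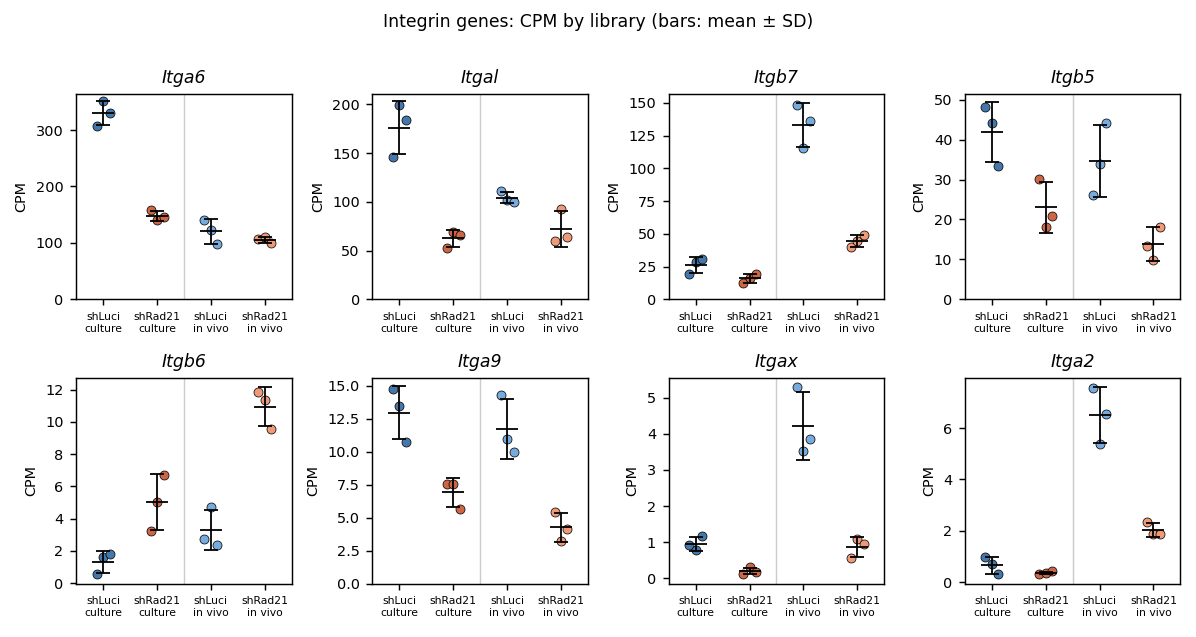
CPM (y axis) of 8 integrin genes in each library, 1 point per library, with the mean and SD of the 3 libraries of each group (x axis). Itga6 and Itgal are lower in shRad21 cells most of all in culture, Itgb7 most of all in vivo, Itgb5, Itga9, and Itgax in both, and Itgb6 is higher in both.

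The collagen IV pair Col4a1 and Col4a2, whose chains make up the common network of basement membranes, was lower in shRad21 cells in culture. Col4a1 was at 330.5, 287, and 263 CPM in shLuci and 191, 168, and 159 CPM in shRad21 libraries (log2 fold change -0.76 ± 0.10, edgeR adjusted p = 0.0008). Col4a2 was at 384, 342, and 368 CPM and 178, 155, and 139.8 CPM (log2 fold change -1.20 ± 0.10, edgeR adjusted p = 3.66e-05). In both genes the lowest shLuci library was above the highest shRad21 library. Because Col4a2 fell more, counts of Col4a1 per count of Col4a2 went from 0.805 ± 0.0797 (SD, n = 3) to 1.10 ± 0.0331, with no overlap. In vivo both were at lower levels, Col4a1 at 29.8, 28.9, and 39.0 CPM and 29.7, 25.03, and 37.1 CPM, which overlapped (edgeR adjusted p = 0.84). Col4a2 was at 29.1, 25.5, and 33.4 CPM and 19.8, 21.2, and 27.6 CPM there (log2 fold change -0.34 ± 0.15, edgeR adjusted p = 0.197). The ratio was 1.11 ± 0.0736 in shLuci and 1.34 ± 0.159 in shRad21 cells in vivo. It did not overlap there either, though narrowly, with 1.17 the highest in shLuci and 1.18 the lowest in shRad21 libraries. The effect on Col4a2 differed between the experiments (-0.85 on the log2 scale, edgeR adjusted p = 0.0129), while that on Col4a1 missed the threshold (-0.67, edgeR adjusted p = 0.0717) and passed with the replicate block (edgeR adjusted p = 0.0026), with DESeq2 (adjusted p = 0.0176), with 10 counts in every library, and with no filter (edgeR adjusted p = 0.0471 and 1.94e-05).

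The X-linked collagen IV pair was higher in shRad21 cells in vivo. Col4a5 was at 1.02, 0.858, and 0.575 CPM in shLuci and 5.45, 2.79, and 2.92 CPM in shRad21 cells, with no overlap (log2 fold change 2.19 ± 0.36, edgeR adjusted p = 0.00432). Its divergent neighbour Col4a6 was at 0, 0, and 0.265 CPM and 1.74, 1.17, and 2.40 CPM (log2 fold change 4.20 ± 0.82, edgeR adjusted p = 0.0102). The Col4a6 call was lost without shRad21 replicate 3 (edgeR adjusted p = 0.0613), and without shLuci replicate 3 no shLuci library held a count and its log2 fold change was 8.26. In culture Col4a5 was at 1.97, 3.34, and 4.11 CPM and 2.02, 3.03, and 4.27 CPM, which overlapped, and Col4a6 was too low to test. The effect on Col4a5 differed between experiments (-2.20 on the log2 scale, edgeR adjusted p = 0.0266), a call that was lost without shLuci culture replicate 2 or 3 or shLuci in vivo replicate 2 or 3 or shRad21 culture replicate 1 or 2 or shRad21 in vivo replicate 1 (edgeR adjusted p = 0.055 to 0.0712). That on Col4a6 did not pass (-3.86, edgeR adjusted p = 0.112), but did with the replicate block and with no filter (edgeR adjusted p = 0.0426 and 0.000487). Megakaryocyte and platelet markers rose in the same cells, 6 of 8 tested (among them Gp9, Gp5, and Treml1), their summed level going from 406 to 644 CPM to 906 to 1108 CPM with no marker at 0, against 551 to 573 and 491 to 634 CPM in culture. Endothelial markers had sums of 339 to 407 CPM and 412 to 447 CPM in vivo, 4 of 6 tested higher (Emcn, Robo4, Tek, and Tie1) and Egfl7 lower, none at 0. The part of either in the collagen and laminin values was not tested.

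Col18a1, a basement membrane collagen from which endostatin is cut, had the largest drop of any called member in culture. It was at 42.6, 45.9, and 40.7 CPM in shLuci and 8.86, 8.13, and 6.97 CPM in shRad21 libraries, far apart (log2 fold change -2.42 ± 0.12, edgeR adjusted p = 7.19e-06). In vivo it was at 3.03, 4.44, and 1.86 CPM and 4.58, 9.30, and 5.13 CPM, with no overlap and the opposite sign, and did not pass the test (log2 fold change 1.05 ± 0.36, edgeR adjusted p = 0.104). It passed, as a second member called in opposite directions, with DESeq2 (adjusted p = 0.0308), in the model of all 12 libraries, with no filter, and with the replicate block (edgeR adjusted p = 0.0256, 0.00113, and 0.0252), and in no analysis with 1 library left out. The difference between both effects was the largest among the called members (-3.47 ± 0.38 on the log2 scale, edgeR adjusted p = 0.000189). Col16a1, a fibril-associated collagen, rose in vivo from 30.2, 34.8, and 46.6 CPM to 99.8, 105, and 99.96 CPM (log2 fold change 1.46 ± 0.13, edgeR adjusted p = 0.000197). In culture its groups overlapped, at 72.2, 62.7, and 49.4 CPM and 68.6, 70.4, and 63.1 CPM (edgeR adjusted p = 0.522), and the effects differed by -1.31 on the log2 scale (edgeR adjusted p = 0.00191).

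Col11a2, a chain of fibrillar collagen, was lower in both experiments, from 62.0, 52.6, and 53.9 CPM to 32.9, 37.7, and 43.2 CPM in culture (log2 fold change -0.56 ± 0.11, edgeR adjusted p = 0.0076) and from 13.1, 14.9, and 13.9 CPM to 9.06, 10.8, and 7.06 CPM in vivo (log2 fold change -0.62 ± 0.17, edgeR adjusted p = 0.0435). Groups did not overlap in either, but the in vivo call was lost without shLuci replicate 1, 2 or 3 or shRad21 replicate 1 or 3 (edgeR adjusted p = 0.07 to 0.154). Its partner chain Col11a1 stayed under 1 CPM in all 12 libraries. Col23a1, a transmembrane collagen, rose in culture from 1.33, 1.28, and 1.73 CPM to 2.76, 2.07, and 3.13 CPM (log2 fold change 0.88 ± 0.24, edgeR adjusted p = 0.0348), without overlap. The call of Col23a1 was lost without shLuci replicate 1 or 2 or shRad21 replicate 1 or 3 (edgeR adjusted p = 0.0785 to 0.139) and missed the threshold with DESeq2 (adjusted p = 0.0585) and in a model of all 12 libraries (edgeR adjusted p = 0.113). Col19a1, another fibril-associated collagen, was at 0.934, 1.36, and 0.841 CPM in shLuci and 0, 0.315, and 0 CPM in shRad21 cells in vivo (log2 fold change -3.21 ± 0.89, edgeR adjusted p = 0.0467). Its call was lost without shLuci replicate 1, 2 or 3 or shRad21 replicate 1 or 3 (edgeR adjusted p = 0.0852 to 0.164), and without shRad21 replicate 2, the one shRad21 library in vivo with counts, the log2 fold change was -7.50.

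The collagens that form the bulk of bone and connective tissue were at low levels. Col1a1 was at 1.81 ± 0.561 CPM (SD, n = 3) in shLuci cells in culture and 0.483 ± 0.387 CPM in vivo, a difference that was called (log2 difference 1.90, edgeR adjusted p = 0.0019). Col1a2 stayed at or under 2.04 CPM in all 12 libraries, and Col3a1 did not reach the minimum. Col5a1, Col7a1, Col9a3, Col14a1, and Col20a1, fibrillar, anchoring, or fibril-associated chains, reached at most 2.15 CPM in any library, and none of these low chains passed a knockdown test. Of 9 stromal and bone cell markers, 3 (Cxcl12, Bglap, and Dcn) had no count in shLuci cells in culture 4 (Cxcl12, Ibsp, Dcn, and Lum) none in shRad21 cells in culture, and 4 (Bglap, Ibsp, Dcn, and Lum) none in shRad21 cells in vivo. Sums of these markers were 54.3 to 95.7 CPM and 61.8 to 97.7 CPM in culture and 89.5 to 127 CPM and 89.9 to 146 CPM in vivo, and overlapped in each. Most of each sum was Pdgfrb, at means of 72.6 and 76.9 CPM in culture and 99.6 and 112 CPM in vivo. Of 3 markers tested in vivo, Cxcl12 was lower in shRad21 cells (-2.32 ± 0.58, edgeR adjusted p = 0.0306), and neither of the 2 tested in culture was called.

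Among the laminins, Lama5, the alpha chain of the laminins of marrow vessels, was the one member called in opposite directions by the tests of each experiment. Lama5 (ENSMUSG00000015647, chr2:180176373-180225859, minus strand) was at 149, 150.2, and 198 CPM in shLuci and 97.4, 116, and 135 CPM in shRad21 cells in culture, with no overlap (log2 fold change -0.51 ± 0.14, edgeR adjusted p = 0.0294). In vivo, at a far lower level, it was at 2.49, 3.18, and 1.46 CPM and 8.10, 5.30, and 5.41 CPM, with no overlap either (log2 fold change 1.42 ± 0.30, edgeR adjusted p = 0.0162). The culture call was lost without shLuci replicate 2 or 3 or shRad21 replicate 1 or 2 (edgeR adjusted p = 0.0531 to 0.101) and in the model of all 12 libraries (edgeR adjusted p = 0.0625). That in vivo was lost without shRad21 replicate 1 (edgeR adjusted p = 0.0654). The difference between the effects, -1.93 ± 0.31 on the log2 scale, was called (edgeR adjusted p = 0.00255) and held without any one library.

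Lamc1, the gamma chain of most laminins, was higher in both. It went from 76.5, 72.1, and 82.3 CPM to 96.8, 92.4, and 92.8 CPM in culture (log2 fold change 0.30 ± 0.08, edgeR adjusted p = 0.0298) and from 8.59, 14.1, and 13.2 CPM to 17.8, 21.6, and 23.0 CPM in vivo (log2 fold change 0.81 ± 0.19, edgeR adjusted p = 0.0249), with no overlap in either. In culture the call was lost without shLuci replicate 1 or 2 or shRad21 replicate 1, 2 or 3 (edgeR adjusted p = 0.0594 to 0.111) and in the model of all 12 libraries (edgeR adjusted p = 0.198), and in vivo without shRad21 replicate 2 or 3 (edgeR adjusted p = 0.0673 to 0.106). The difference between the Lamc1 effects (-0.51 on the log2 scale, edgeR adjusted p = 0.182) passed only with the replicate block and with no filter (edgeR adjusted p = 0.046 and 0.0176). Lamb3, the beta chain of an epithelial laminin, fell in culture from 10.2, 9.91, and 10.7 CPM to 3.71, 4.39, and 4.09 CPM (log2 fold change -1.33 ± 0.15, edgeR adjusted p = 0.000253). In vivo Lamb3 overlapped between groups, at 5.12, 7.06, and 7.61 CPM and 6.32, 2.92, and 4.57 CPM (log2 fold change -0.51 ± 0.28, edgeR adjusted p = 0.317), and the difference between both effects did not pass (edgeR adjusted p = 0.2). Lamb2, the other beta chain with enough counts, was at 41.9 ± 8.04 and 47.2 ± 8.80 CPM (SD, n = 3) in culture and 6.56 ± 1.45 and 4.70 ± 0.664 CPM in vivo (edgeR adjusted p = 0.532 and 0.216). Lama3 and Lama4 stayed under 2 CPM in all 12 libraries, and neither was called.

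**Figure D4:**
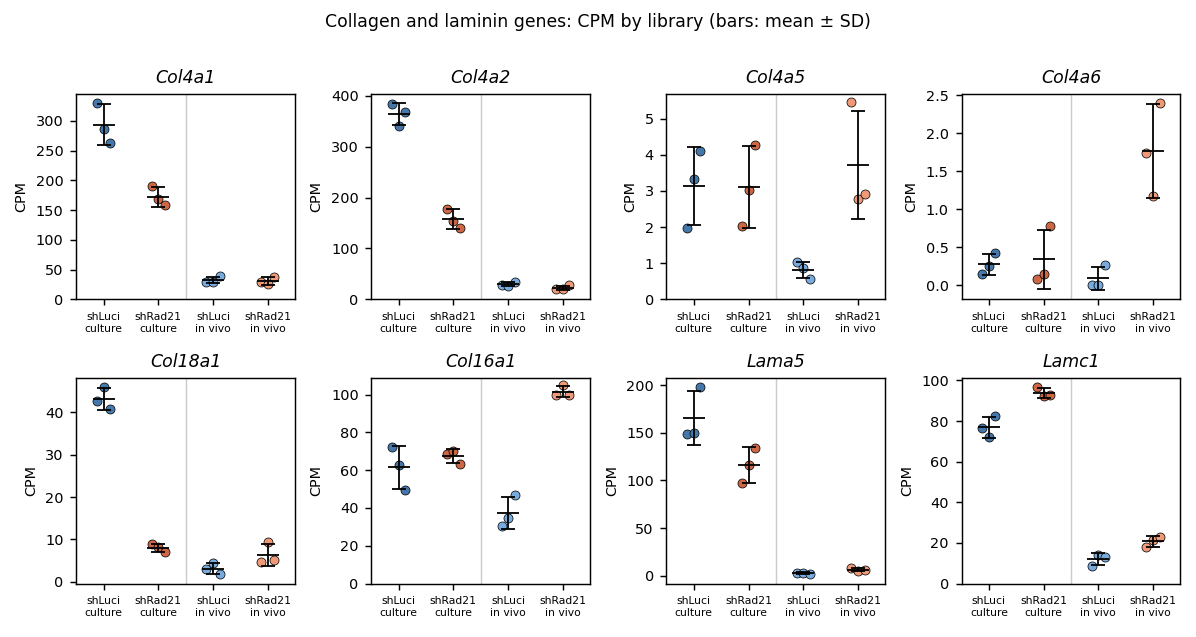
CPM (y axis) of 6 collagen and 2 laminin genes in each library, 1 point per library, with the mean and SD of the 3 libraries of each group (x axis). Col4a1, Col4a2, Col18a1, and Lama5 are lower after knockdown in culture, Col4a5, Col4a6, Col16a1, and Lama5 are higher in vivo, and Lamc1 is higher in both.

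Of the genes that share only the letters of these families, Itgb1bp2, also named melusin, was at 1.26, 0.924, and 2.19 CPM and 0.577, 0.859, and 0.712 CPM in culture and passed only with the replicate number as a block (log2 fold change -1.05 ± 0.36, edgeR adjusted p = 0.0785 without it and 0.0301 with it). Itgb1bp1, Itgb3bp, and Col4a3bp were at means of 31.1, 11.1, and 91.8 CPM in shLuci cells in culture.

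Control cells from culture and in vivo differed in most members, a share near that of all genes. Of 49 members tested, 23 were higher in shLuci cells from culture and 13 lower than in shLuci cells in vivo, against 74.2% of 17050 genes called (37.1% in each direction), and the groups did not overlap in 34 members, against 74.9% of all genes tested. The days in culture, the sorted population, the library kit (TruSeq in culture, SMART-Seq with Nextera in vivo), and the sequencing lane all differ with the experiment, so these cannot be told apart. With all genes cut into 4 classes of equal size by exonic length, the longest class had a median log2 difference of 0.45 and the other classes -0.317 to -0.0434. Most members lie in that longest class, of 6015 bases or more, among them Lama5 (11388 bases) and Col4a1 (7464 bases). The part of length in the median of the members was not tested. The median of the members was 0.62 against -0.0062 for all genes, a median that moved to -0.181 with scaling by library size alone and to -0.124 with upper-quartile scaling.

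The members with the largest differences toward culture were Lama5, Col18a1, Col4a2, and Col4a1. Lama5 was 6.14 ± 0.24 higher on the log2 scale (edgeR adjusted p = 1.11e-11), the largest difference of any member called, from 2.49, 3.18, and 1.46 CPM in vivo to 149, 150.2, and 198 CPM in culture. Col18a1 (3.80 ± 0.28, edgeR adjusted p = 1.27e-08), Col4a2 (3.63 ± 0.14, edgeR adjusted p = 8.06e-12), and Col4a1 (3.17 ± 0.15, edgeR adjusted p = 8.8e-11) came next. Itga10, whose product binds collagen, followed with 3.02 ± 0.41, edgeR adjusted p = 9.94e-06, at 3.04 ± 0.481 against 0.372 ± 0.225 CPM (SD, n = 3). In summed level per length over the 20 collagen members, shLuci cells held 119.6 ± 8.52 RPKM in culture and 18.1 ± 2.38 in vivo, the 7 laminins 32.4 ± 4.36 and 3.93 ± 0.711, and the 20 integrins 312.4 ± 7.92 and 236.2 ± 4.55. The sum of the collagens was 65.4 ± 4.60 RPKM in shRad21 cells in culture and 26.4 ± 0.844 RPKM in shRad21 cells in vivo, with no overlap between shLuci and shRad21 in either experiment. The in vivo rise lay in Col16a1, without which the other 19 collagens summed to 12.6 ± 1.14 and 11.4 ± 0.934 RPKM in shLuci and shRad21 cells in vivo, which overlapped, and to 110.5 ± 7.11 and 55.4 ± 4.28 RPKM in culture, which did not.

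The 13 members lower in culture were 6 integrin chains, 4 collagens, 1 laminin chain, and 2 of the other genes. Itgb2l (-4.05 ± 0.64, edgeR adjusted p = 4.37e-05), Itgad (-3.59 ± 0.75, edgeR adjusted p = 0.000511), Itga2 (-3.31 ± 0.32, edgeR adjusted p = 2.14e-07), and Col19a1 (-3.16 ± 0.90, edgeR adjusted p = 0.00515) were lower in culture, all but Itga2 at under 3 CPM in vivo. Itgad and Col19a1 are members only through the shLuci libraries in vivo, the higher group here, so their differences were favored by the choice of members. Itgb7 was at 19.5, 28.6, and 30.6 CPM in culture and 149, 115, and 136 CPM in vivo (-2.33 ± 0.17, edgeR adjusted p = 9.78e-09). Lamc3, a gamma chain of restricted expression, had no count in the shLuci libraries of culture and 0, 6, and 12 counts in those in vivo, so the groups overlapped, and the sum of 18 counts makes it at least 5.75-fold lower in culture (a floor of 3 counts over the group). Itgb1 was also higher in culture (0.62 ± 0.07, edgeR adjusted p = 5.85e-07), as were Itga4 (1.36 ± 0.09, edgeR adjusted p = 2.71e-09), Itga6 (1.46 ± 0.11, edgeR adjusted p = 1.4e-08), Itga5 (0.90 ± 0.10, edgeR adjusted p = 6.67e-07), and the leukocyte chain Itgal (0.76 ± 0.15, edgeR adjusted p = 0.000416). Beside these differences, markers of neutrophils, B cells, T and NK cells, and erythroid cells were higher in vivo, 7 of 7, 5 of 5, 3 of 4, and 6 of 7 tested, against 37.1% of all genes, with neutrophil sums of 1541 to 1985 CPM against 69.4 to 86.0 CPM, and Ly6g and S100a8 at 0 in shLuci cells from culture. Mast cell and basophil markers were higher in vivo in 5 of 7 tested, and stromal and bone markers in 2 of 4. Other lists were mixed. Of 8 monocyte, macrophage, and dendritic cell markers 2 were higher in culture and 2 in vivo, and of 8 megakaryocyte and platelet markers 2 and 4. Of 10 stem and progenitor markers 3 were higher in culture and 4 in vivo, and of 7 endothelial markers 4 and 3. Their part in the member values was not tested.

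**Figure D5:**
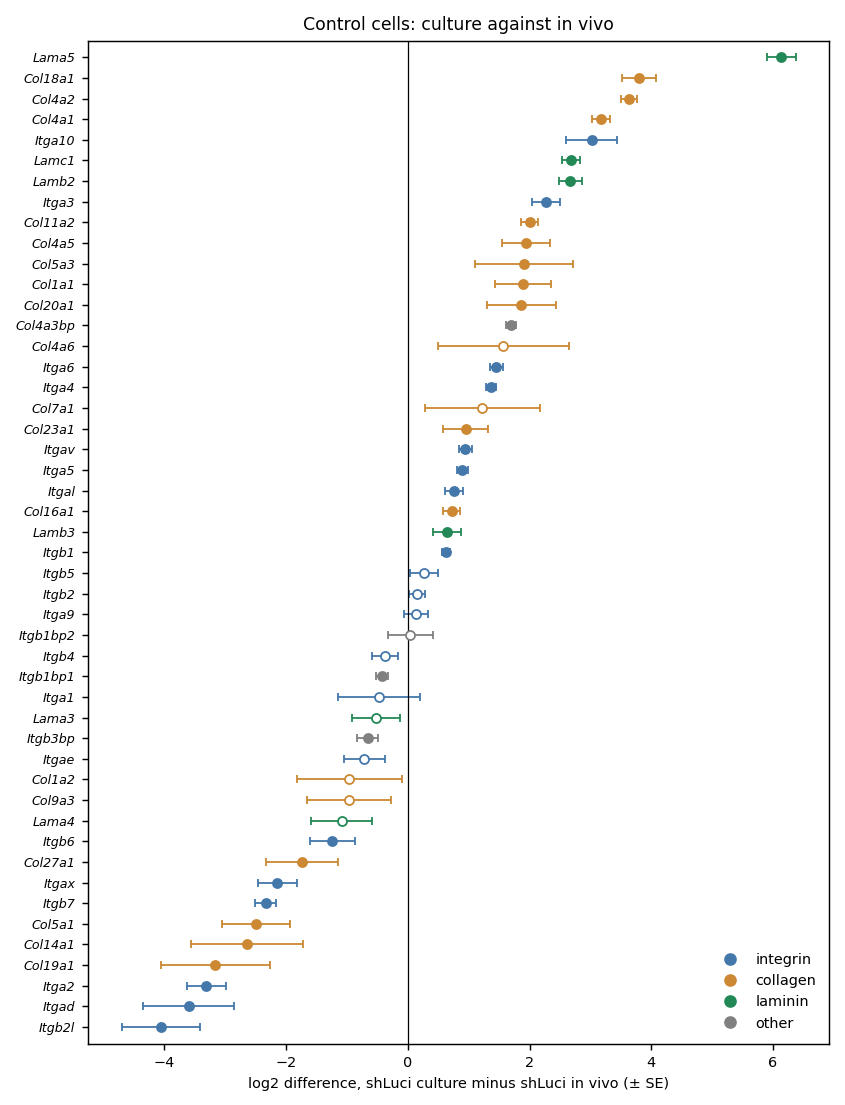
Log2 difference between shLuci cells from culture and shLuci cells in vivo (x axis, points with SE bars) for 48 members in order of value, colored by family, with filled points for those that passed the edgeR test; Lamc3, with no count in culture, is left out. Lama5 (6.14), Col18a1 (3.80), Col4a2 (3.63), and Col4a1 (3.17) are at the culture end and Itgb2l (-4.05) and Itgad (-3.59) at the in vivo end.

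Across the experiments, the effect of the knockdown differed in 8 of 49 members tested, 1 higher and 7 lower in culture than in vivo, against 4.67% of 17050 genes (1.64% higher and 3.03% lower). They were Itgb7, with the more negative effect in vivo, and Itga6, Itgal, Col4a2, Col4a5, Col16a1, Col18a1, and Lama5. Without shLuci in vivo replicate 2 these counts were 1 and 6.

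Of 29 genes whose products link integrins to the cytoskeleton or activate them, 25 were tested in culture, 7 higher and 2 lower, and 24 in vivo, 9 higher and 1 lower, with median log2 fold changes of 0.23 and 0.14, against 6.18% of all genes higher and 8.06% lower in culture and 5.65% and 5.32% in vivo. Fermt2, Ptk2, Tgfb1i1, Tln1, and Zyx were higher in both. Talin (Tln1), which switches integrins on, had a log2 fold change of 0.40 ± 0.11 in culture (edgeR adjusted p = 0.0371) and 0.36 ± 0.08 in vivo (edgeR adjusted p = 0.0197). Focal adhesion kinase (Ptk2) had 0.52 ± 0.10 (edgeR adjusted p = 0.00458) and 1.22 ± 0.19 (edgeR adjusted p = 0.00329), and the zyxin gene Zyx 0.62 ± 0.09 (edgeR adjusted p = 0.000898) and 0.29 ± 0.06 (edgeR adjusted p = 0.0174). The adaptor Fyb was lower in culture (-0.76 ± 0.10, edgeR adjusted p = 0.000814) and higher in vivo (0.58 ± 0.09, edgeR adjusted p = 0.00278).

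Of 28 genes for collagen synthesis and crosslinking, 20 were tested in culture (4 higher, 3 lower) and 18 in vivo, of which 5 were higher, against 6.18% and 8.06% of all genes in culture and 5.65% higher in vivo. Bmp1, the protease that trims procollagen, was higher in both (0.95 ± 0.12 in culture, edgeR adjusted p = 0.000535, and 0.80 ± 0.09 in vivo, edgeR adjusted p = 0.000559), as were the prolyl hydroxylases P3h2 and P3h3. Serpinh1, the collagen chaperone, was higher in vivo (2.24 ± 0.28, edgeR adjusted p = 0.0011), and the crosslinking enzyme gene Loxl2 was lower in culture (-2.85 ± 0.32, edgeR adjusted p = 0.000288).

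Of 28 other ligands, 16 were tested in culture (6 higher, 7 lower) and 19 in vivo (1 higher, 2 lower). The shares of all genes called, for these and the lists that follow, were 14.2% in culture and 11.0% in vivo. Vwf, which carries platelets to collagen, was higher in both, 0.80 ± 0.17 in culture (edgeR adjusted p = 0.00863) and 3.16 ± 0.08 in vivo (edgeR adjusted p = 8.14e-08). Vcam1, the ligand of the Itga4 receptor, was lower in vivo (-1.25 ± 0.24, edgeR adjusted p = 0.00888), and Icam1, a ligand of LFA-1, was lower in culture (-0.69 ± 0.16, edgeR adjusted p = 0.013). In vivo Icam1 missed the threshold (edgeR adjusted p = 0.051) and passed with the replicate block (edgeR adjusted p = 0.0226). The basement membrane partners Hspg2, Agrn, and Nid2 were lower in culture, with log2 fold changes of -1.03, -0.73, and -0.99. Another list held 15 genes of adhesion that are not integrins, some but not all of them receptors for collagen or laminin. Of these, 13 were tested in culture, of which 4 were lower, and 12 in vivo (2 higher, 5 lower). Bcam, Cd44, Cd47, and Sdc4 were lower in both, and Ddr1, a collagen receptor kinase, was higher in vivo (2.47 ± 0.67, edgeR adjusted p = 0.043). The Ddr1 call was lost with the replicate block (edgeR adjusted p = 0.0612). Of 17 matrix metalloproteinase and inhibitor genes, 10 were tested in culture (2 higher, 3 lower) and 12 in vivo (1 higher, 1 lower), with Mmp16 higher and Reck lower in both.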

How the data were processed

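The authors removed rRNA reads, trimmed the rest, mapped them to GRCm38 with TopHat2 (2.0.11), and counted them on genes with HTSeq (0.6.1), as the labels and the study's methods state. The deposited values are these raw counts per gene, whole numbers without normalization. The kits do not mark strand, and the strand setting and annotation release are not given in the sources used here. Reads shared by overlapping genes could therefore be left out of the counts. Total counts per library were 15235129 to 29846689.

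Of 46078 genes, 45229 were matched to GENCODE M21 and 849, with 0.105% of counts, were not. Groups and replicate numbers came from the library titles. Counts were tested with edgeR 4.0.16 (R 4.3.3; TMM scaling, filterByExpr by group, glmQLFit, glmQLFTest) over all genes, separately for the culture and the in vivo libraries, and over all 12 libraries in 4 groups for the control cells and the difference between effects. The threshold was a Benjamini-Hochberg adjusted p of 0.05, and the SE was the log2 fold change divided by the square root of F. CPM used TMM over all 12 libraries, and RPKM divided CPM by merged exonic length. Scripts were tested on simulated data. Same-numbered culture libraries deviated together (r = 0.265 to 0.293 over 15543 genes), so the numbers pair the samples there. The main tests leave this pairing out, and with the replicate block 3186 of these genes were called in culture, against 2213 without it. The blocked result is given where it changes the call of a member.

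Members with a call in a knockdown comparison or in the difference between them, the 8 highest per length in any group, the 5 most different each way in control cells, and their textbook partners were named. Other genes were named where called or as markers, and 1 B cell marker is not reported here. The members and lists were chosen with earlier results of these data known. Alternatives were DESeq2 1.42.0, other scalings and filters, the replicate block, 1 model of all libraries, and each library left out. Promoter windows came from RefSeq (GRCm38.p6).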

Additional observations from a re-analysis of the deposited data

Results flagged for a closer look

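In 8 members the effect of the Rad21 knockdown in culture differed from that in vivo by a test of the difference itself, given as the log2 effect in culture minus the log2 effect in vivo with its SE. The effect was lower in culture for Col18a1 (-3.47 ± 0.38, edgeR adjusted p = 0.000189), Col4a5 (-2.20 ± 0.53, edgeR adjusted p = 0.0266), Lama5 (-1.93 ± 0.31, edgeR adjusted p = 0.00255), Col16a1 (-1.31 ± 0.20, edgeR adjusted p = 0.00191), Itga6 (-0.97 ± 0.15, edgeR adjusted p = 0.00203), Itgal (-0.97 ± 0.22, edgeR adjusted p = 0.0204), and Col4a2 (-0.85 ± 0.18, edgeR adjusted p = 0.0129). It was higher in culture for Itgb7 (0.87 ± 0.24, edgeR adjusted p = 0.0494). Itga6, Itgal, and Col4a2 had negative log2 fold changes in both experiments and were called in culture, Col16a1 and Col4a5 rose in vivo and were not called in culture, Lama5 was called in opposite directions, and Col18a1 fell in culture and had the opposite sign, without a call, in vivo. Kit, sorted population, and lane differ between the experiments, and their part in these differences cannot be told apart from that of the setting.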

How the results depend on the processing

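No member called in a comparison changed its sign under any alternative that was run. With all 12 libraries in 1 model, 1 member was higher in culture in place of 3. Among members lower in culture than in vivo in control cells, 3 in place of 13 were called when 10 counts were required in every library, which tests fewer genes. For the difference between experiments, members with a higher effect numbered 2 with DESeq2, 3 with no filter on low counts, 2 with the replicate block, and 0 with upper-quartile scaling in place of 1, and those with a lower effect 12 with no filter in place of 7; the cause was not tested. With 1 library left out, members higher in culture numbered 1 to 3 and lower 10 to 13, members higher in vivo 5 to 8 and lower 5 to 10, members higher in control cells of culture 20 to 23 and lower 11 to 14, and members with a higher effect in culture 0 to 1 and a lower effect 5 to 9. The replicate block kept every call of both knockdown comparisons, added Itgb4 and Itgb1bp2 in culture and Itgal and Col18a1 in vivo, added Col4a1, Col4a6, Lamc1, and Col27a1 (edgeR adjusted p = 0.0389) for the difference between experiments, and in control cells ended 1 call, that of Col5a3 (edgeR adjusted p = 0.0704). In vivo the numbers do not pair the libraries (same-number r = 0.016 to 0.086). Calls of members gained with the block there, those of Itgal and Col18a1, do not rest on a pairing seen in the data. At these depths 11 members had enough counts for a test in vivo only and 3 in culture only.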
